A study of Mus musculus with 4 samples.

Results

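The protease inhibitors and plasminogen activators of mouse bone marrow-derived mesenchymal stem cells (mBMSCs) were examined after depletion of ZBP1. The group has 9 genes, listed by their role in the control of matrix proteolysis: the tissue inhibitors Timp1, Timp2, Timp3 and Timp4, the membrane-anchored inhibitor Reck, the serpins Serpine2 and Serpinf1, and the plasminogen activators Plau and Plat. All 9 were found by symbol among the 24346 gene rows of the expression table. The cells came from femoral marrow of C57BL/6 mice (C57BL/6J in the methods) aged 3 months, were kept as plastic-adherent cultures after washing off nonadherent cells, and were transfected with Lipofectamine RNAiMAX. The control group received scrambled siRNA (siScr, n = 2) and the other group received siRNA against ZBP1 (siZBP1, n = 2), and RNA was taken 72 h later from both. The sources do not name which of the study's siRNAs against ZBP1 was used, nor whether replicates came from separate mice, so p-values measure only the spread between these samples.

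Proteolysis of the extracellular matrix is run by secreted and membrane-bound proteases and held back by inhibitors made by the same stromal cells. TIMPs bind the active site of matrix metalloproteinases (MMPs), and TIMP3, which stays attached to the matrix, also inhibits members of the ADAM and ADAMTS families. Urokinase (Plau) and tissue plasminogen activator (Plat) convert plasminogen into plasmin, a broad protease that also activates several pro-MMPs. Serpins trap serine proteases by an irreversible conformational change, although PEDF, the product of Serpinf1, is a serpin without inhibitory activity that is secreted by bone-forming cells.

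Expression is given as FPKM, fragments scaled by transcript length and by the number mapped in the library, so that levels of different genes can be set side by side. The FPKM of a sample summed to between 477974 and 492166. Numbers of reads are not given. By the spacing of the lowest values, siScr replicate 1 was 1.40 times, siScr replicate 2 was 1.87 times and siZBP1 replicate 2 was 1.61 times as deep as siZBP1 replicate 1. The targeted gene Zbp1 was at 86.0 and 62.0 FPKM in the siScr samples and at 11.5 and 11.6 FPKM in the siZBP1 samples. Differences were tested with limma on the log2(FPKM + 1) scale, over 11959 genes that averaged 1 FPKM or more, and a gene was called at a Benjamini-Hochberg adjusted p under 0.05. With 2 samples a group, the smallest two-sided p of an exact permutation test on 1 gene is 0.333, and each adjusted p therefore rests on the variance that limma shares between genes.

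The cultures were checked against markers of the labelled cell type and of others. Of 14 mesenchymal markers, 13 were tested, with 6 lower (Col1a1, Pdgfrb, Eng, Cd44, Cxcl12 and Prrx1) and 1 higher (Nt5e), and their summed level was 4983 to 6007 FPKM in siScr cells and 3568 to 3603 FPKM in siZBP1 cells. The macrophage markers were also abundant: all 14 were tested, 9 rose and none fell, and their sum was 8288 to 9261 FPKM in siScr cells and 12878 to 13595 FPKM in siZBP1 cells. Of their defining genes, Adgre1 had means of 291 and 316 FPKM and Csf1r of 469 and 571 FPKM (n = 2 each). Of the mesenchymal list, Col1a1, Col1a2, Col3a1, Ly6a, Cd44, Cxcl12, Prrx1, Pdgfrb and Eng had siScr means between 23.6 and 2793 FPKM, and Vcam1, Nt5e, Thy1, Pdgfra and Lepr between 1.07 and 5.92 FPKM. Most of the mesenchymal sum came from Col1a1 (means of 2793 FPKM in siScr and 1160 FPKM in siZBP1 cells) and Col1a2 (1949 and 1820 FPKM). The largest part of the macrophage sum was Lyz2 (3230 and 5636 FPKM). Each sum thus follows a few abundant genes. The counts of both marker lists stand beside 14.8% called lower and 13.5% called higher among all genes tested. The part of the cell types in the differences of the members was not tested. In bulk RNA, fewer cells of a type and less RNA per cell cannot be told apart. Endothelial markers summed to 4.60 to 5.53 FPKM, neutrophil markers to 0.532 to 4.64 FPKM and lymphocyte markers to 4.20 to 5.94 FPKM over the samples.

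Of the 9 genes, 4 fell in siZBP1 cells (Timp3, Reck, Timp2 and Serpinf1), 2 rose (Serpine2 and Plat), 2 were tested without passing the threshold (Timp1 and Plau), and Timp4 was listed at 0 in every sample and not tested. Among all genes tested, 14.8% were called lower and 13.5% were called higher. By the ratio of the group means, 3 members were lower by over 1.5-fold (Timp3, Reck and Timp2) and 2 were higher (Serpine2 and Plat), where 13.8% and 10.7% of all genes detected in both groups passed this fold. The ranges of siScr and siZBP1 were apart in 7 members, with siZBP1 below in 5 and above in 2, while siZBP1 lay below in 33.7% and above in 34.7% of all genes tested. The median log2 difference of the 8 tested members was -0.26, beside 0.0045 for all genes tested. In siZBP1 cells the sum of mesenchymal markers was lower and that of macrophage markers was higher, with the values given above. With 2 groups, any change of a member goes alongside both sums, and a link to either was not tested.

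**Figure D1:**
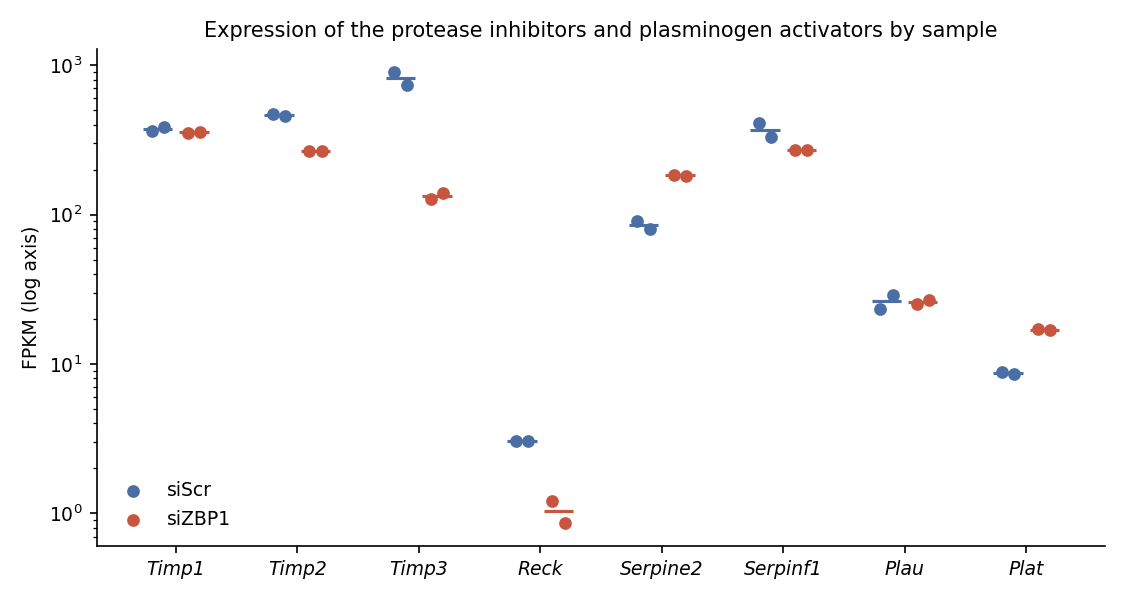
Expression of the 8 detected members in each sample, in FPKM on a log axis, with siScr samples in blue, siZBP1 samples in red and horizontal lines at the group means. Timp3 moved from the top of the siScr cells to between Serpine2 and Plau in the siZBP1 cells, and Timp4 is not drawn because it was listed at 0.

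The promoters of the most changed members with an entry in RefSeq are shown with short motifs in capitals. For 7 of the 9 members RefSeq (GRCm38.p6) gave the stretch from 250 bases before to 50 bases after the start that it lists. That start can differ from the start of the GENCODE locus given below. The windows of Serpine2 and Timp2 lie wholly inside those loci. The 7 windows held neither an AP-1 motif (TGANTCA, in 7.81% of all 32851 promoters) nor an E-box (CACGTG, in 7.15%). The GC box (GGGCGG, in 35.7% of promoters) was found in Timp1, Timp2, Timp3, Reck and Serpine2, the RUNX core (TGNGGT, 45.8%) in Timp3, Timp4, Reck, Serpine2 and Serpinf1, and the TCF/LEF core (CTTTGNN with A or T for N, 16.9%) in Reck alone. All were searched on both strands, and among the motifs only GC boxes of Serpine2 overlapped each other, in 1 pair. Each sequence is given along its gene's strand, at chr10:86300162-86300461 for Timp3 (plus), chr4:43875280-43875579 for Reck (plus) and chr1:79858616-79858915 for Serpine2 (minus).
Timp3: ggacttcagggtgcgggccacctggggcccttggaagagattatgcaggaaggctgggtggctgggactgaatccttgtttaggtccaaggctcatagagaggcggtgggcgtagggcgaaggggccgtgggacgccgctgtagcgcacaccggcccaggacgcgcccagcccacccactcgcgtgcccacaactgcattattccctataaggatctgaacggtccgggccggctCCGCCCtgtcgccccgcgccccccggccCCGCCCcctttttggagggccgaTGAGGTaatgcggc
Reck: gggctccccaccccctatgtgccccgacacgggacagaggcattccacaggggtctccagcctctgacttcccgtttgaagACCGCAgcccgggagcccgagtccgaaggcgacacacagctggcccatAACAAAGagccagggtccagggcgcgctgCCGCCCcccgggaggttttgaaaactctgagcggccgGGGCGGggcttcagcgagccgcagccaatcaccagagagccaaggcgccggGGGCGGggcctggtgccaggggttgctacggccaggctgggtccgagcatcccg
Serpine2: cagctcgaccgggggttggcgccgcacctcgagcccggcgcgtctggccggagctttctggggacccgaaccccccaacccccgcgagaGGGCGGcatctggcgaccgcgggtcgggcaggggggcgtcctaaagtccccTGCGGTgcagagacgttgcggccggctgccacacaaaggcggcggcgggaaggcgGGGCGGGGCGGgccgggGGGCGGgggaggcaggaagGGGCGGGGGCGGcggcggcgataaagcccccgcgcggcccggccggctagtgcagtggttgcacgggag

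The capitals in Timp3 mark 2 GC boxes and 1 RUNX core, those in Reck 3 GC boxes, 1 RUNX core and 1 TCF/LEF core, and those in Serpine2 6 GC boxes and 1 RUNX core. Serpinf1 had 3 RUNX cores and no GC box. The promoters of Timp3, Timp2, Reck and Serpine2 were rich in CG dinucleotides (24, 25, 23 and 41, beside a median of 7 over all promoters), and those of Timp1, Serpinf1 and Timp4 had 8, 3 and 2. CG-rich promoters were thus found for members that fell and for the member that rose most. A match of letters is a description of these windows and not a binding site.

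Timp3 had the largest change of the members. Its expression was 902 and 732 FPKM in the siScr samples and 128 and 140.1 FPKM in the siZBP1 samples. Both depleted samples lay far below both controls, and the difference between the controls was much smaller than that between the groups. The mean fell from 817 ± 119.6 to 134 ± 8.76 FPKM (SD, n = 2 each), a 6.10-fold lower level. The limma log2 difference was -2.59 (standard error 0.11, 95% confidence interval -2.89 to -2.29, adjusted p = 0.00221), which ranked 64 from the lowest among the 11959 genes.

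Timp3 lies on the plus strand of GRCm38 at chr10:86300372-86349506, inside the synapsin gene Syn3, which runs on the opposite strand and shares 1733 exonic bases with it in GENCODE M21. Whether fragments were counted by strand is not stated. Syn3 was at 0.152 to 0.339 FPKM over the samples, with groups that overlapped, so its level was far under that of Timp3 in each sample.

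Timp2 encodes an inhibitor that also takes part in the activation of pro-MMP2 by the membrane protease MMP14. It was at 468 and 459.6 FPKM in the siScr samples and at 266 and 265 FPKM in the siZBP1 samples. The replicates of each group were nearly equal and the groups were well apart. The mean was 1.75-fold lower, with a limma log2 difference of -0.80 (standard error 0.037, 95% confidence interval -0.90 to -0.70, adjusted p = 0.00231). This interval does not overlap that of Timp3. The gene lies on the minus strand at chr11:118301069-118355740 and overlaps Cep295nl on the same strand without a shared exonic base.

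An siRNA can lower other transcripts through its seed, and the longest annotated 3' UTR of each gene (GENCODE M21) was therefore searched for the 7-base word that pairs with antisense positions 2 to 8 of either siRNA against ZBP1. The word of siZBP1-1 (CAGCCAA) was found in 1316 of 10868 tested genes with such a 3' UTR (12.1%) and that of siZBP1-2 (TCCGGGA) in 268 (2.47%). Of the called members, Timp2 held 1 word of siZBP1-1, and the 3' UTRs of Timp3 (3604 bases), Reck (1441), Serpinf1 (365), Serpine2 (808) and Plat (738) held neither word. The word in Timp2 lies at chr11:118302009-118302015, and Timp4, which was not detected, also held 1. These are matches of letters, and repression through them was not tested. The site of Timp2 is shown along its minus strand at chr11:118301999-118302025, with the word in capitals.
Timp2 site: tggcctggacCAGCCAAcgagaccctg

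Timp1, which is inducible by cytokines and growth factors in many stromal cells, was at 362 and 386 FPKM in the siScr samples and at 350.4 and 357 FPKM in the siZBP1 samples. The depleted samples were below the controls by little. The limma log2 difference was -0.08 (standard error 0.049, adjusted p = 0.292), and its 95% confidence interval ran from -0.21 to 0.05, which is a ratio between 0.866 and 1.04 on the scale of FPKM + 1. A fall of the size seen for Timp2 lies outside this interval. Timp1 lies at chrX:20870166-20874735, inside Syn1 on the opposite strand with no shared exonic base, and Syn1 was at 2.78 to 3.80 FPKM. Timp4 lies inside Syn2 on the opposite strand at chr6:115241892-115252205 and was listed at 0 FPKM in all 4 samples.

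The summed TIMP level and its makeup differed between the groups. Timp1, Timp2 and Timp3 together were at 1731 and 1578 FPKM in the siScr samples and at 744 and 763 FPKM in the siZBP1 samples, a 2.20-fold lower mean. Timp3 accounted for 75.8% of the fall in this sum, Timp2 for 22.0% and Timp1 for 2.22%. In siScr cells Timp3 held the largest share of the sum, at 49.2% ± 4.01 (SD, n = 2), followed by Timp2 at 28.1% ± 1.49 and Timp1 at 22.7% ± 2.52. In siZBP1 cells the order was turned around, with Timp1 at 47.0% ± 0.188, Timp2 at 35.2% ± 0.656 and Timp3 at 17.8% ± 0.844. Because shares of a sum are tied to each other, the higher share of Timp1 goes with a level that did not pass the test, and these shares are given without one.

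**Figure D2:**
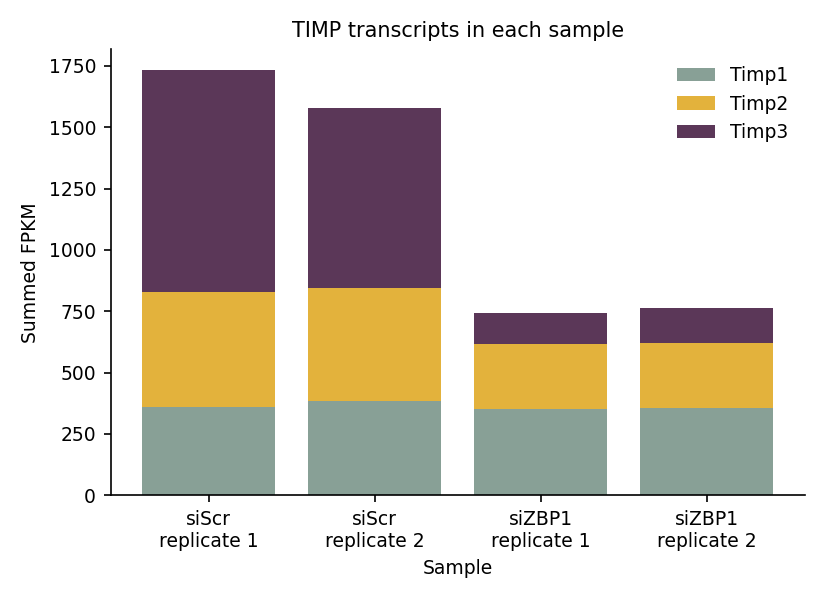
FPKM of Timp1, Timp2 and Timp3 stacked for each of the 4 samples, with the bars starting at 0. The siScr bars reach 1731 and 1578 FPKM and the siZBP1 bars 744 and 763 FPKM, and the Timp3 segment shrinks most while the Timp1 segment is of similar height in all bars.

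Reck, a glycosylphosphatidylinositol-anchored protein that inhibits several MMPs at the cell surface, was the lowest of the detected members. It was at 3.03 and 3.06 FPKM in the siScr samples and at 1.20 and 0.861 FPKM in the siZBP1 samples. The controls were almost equal, and the depleted samples were both lower and differed from each other more. The mean was 2.95-fold lower, and the limma log2 difference was -0.999 (standard error 0.13, 95% confidence interval -1.35 to -0.65, adjusted p = 0.0107). Adding 1 to values of this size shrinks the difference, which was -1.49 with 0.1 added in place of 1 and -0.42 with 5 added. Reck lies on the plus strand at chr4:43875530-43944806.

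The serpins moved in opposite directions. Serpine2 encodes protease nexin-1, an inhibitor of thrombin, urokinase, tissue plasminogen activator and plasmin. It was at 90.6 and 79.7 FPKM in the siScr samples and at 185 and 181 FPKM in the siZBP1 samples. Both depleted samples were above both controls, and the mean was 2.15-fold higher. The limma log2 difference was 1.10 (standard error 0.070, 95% confidence interval 0.91 to 1.28, adjusted p = 0.00323), which ranked 94 from the highest. The gene lies on the minus strand at chr1:79794197-79861180.

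Serpinf1 encodes PEDF (pigment epithelium-derived factor), a secreted antiangiogenic protein whose loss in humans causes a form of brittle bone disease with defective mineralization. It was at 411 and 329 FPKM in the siScr samples and at 272 and 269 FPKM in the siZBP1 samples. The groups did not overlap, but the controls differed from each other by more than the lower control differed from the depleted samples. The mean fell from 370.4 ± 57.8 to 270.2 ± 1.99 FPKM (SD, n = 2 each), which is 1.37-fold. The limma log2 difference was -0.44 (standard error 0.11, 95% confidence interval -0.74 to -0.15, adjusted p = 0.0455). This call was lost with quantile normalization (adjusted p = 0.0543), median centring (0.0547), no filter on low values (0.0710) and no variance trend in limma (0.0740). Serpinf1 lies on the minus strand at chr11:75409769-75422701.

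Of the plasminogen activators, Plat rose and Plau did not pass the test. Plat was at 8.89 and 8.55 FPKM in the siScr samples and at 17.0 and 16.9 FPKM in the siZBP1 samples. Replicates were close in both groups and the groups were apart. The mean was 1.94-fold higher, with a limma log2 difference of 0.89 (standard error 0.057, 95% confidence interval 0.73 to 1.04, adjusted p = 0.00324). Plat lies on the plus strand at chr8:22757727-22782844.

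Plau was at 23.5 and 29.2 FPKM in the siScr samples and at 25.0 and 26.6 FPKM in the siZBP1 samples. Both depleted samples fell between the controls. The limma log2 difference was -0.02 (standard error 0.11, adjusted p = 0.918), with a 95% confidence interval of -0.31 to 0.28, a ratio between 0.805 and 1.21 on the scale of FPKM + 1. A rise of the size seen for Plat lies outside this interval. The ratio of Plau to Plat within a sample was 2.64 and 3.41 in siScr cells and 1.47 and 1.58 in siZBP1 cells, and the ratio of Serpine2 to the sum of both activators was 2.80 and 2.11 against 4.40 and 4.17. Serpine2 is not the only inhibitor of these activators, so the latter ratio does not give the balance of inhibitors and activators. Plau lies on the plus strand at chr14:20836660-20843385.

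**Figure D3:**
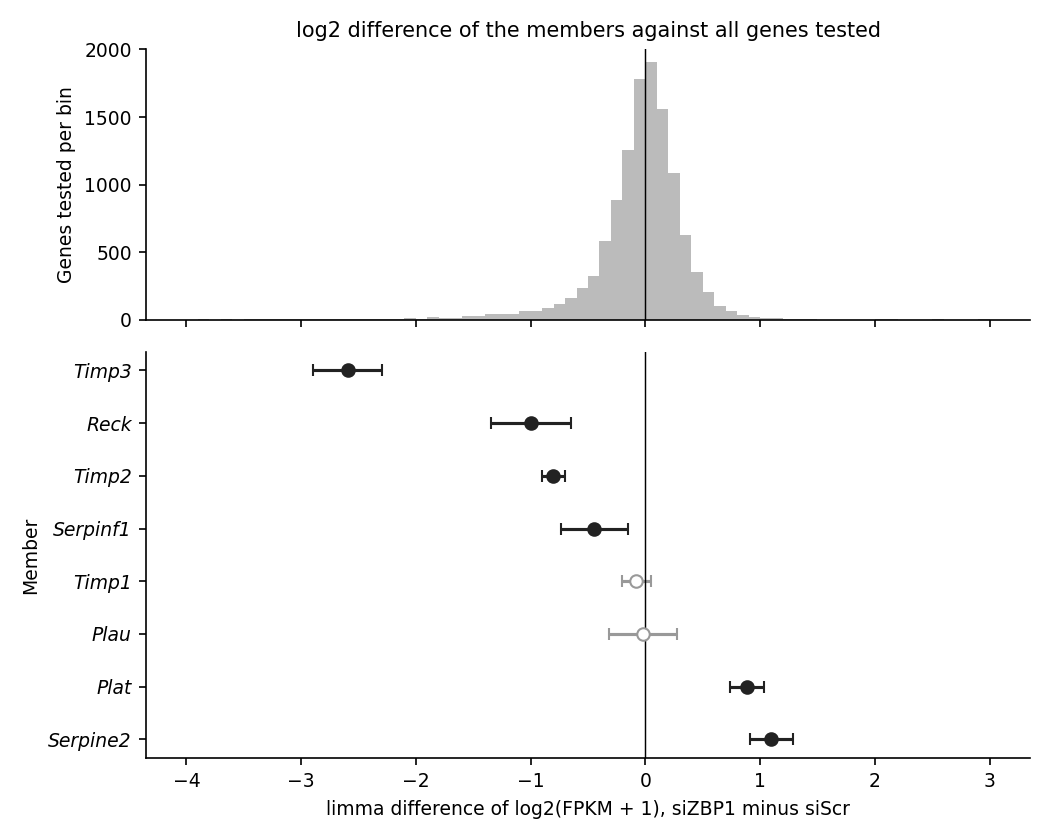
The upper panel counts all genes tested by limma log2 difference (siZBP1 minus siScr, bins of 0.1, with 40 genes outside the plotted range), and the lower panel gives each member's difference with its 95% confidence interval, filled where the adjusted p was under 0.05. Timp3 sits at -2.59, far from the bulk of genes, while the intervals of Timp1 and Plau include 0.

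The order of the levels within a group also changed. In siScr cells it ran from Timp3 (817 FPKM) through Timp2 (464), Timp1 (374), Serpinf1 (370.4), Serpine2 (85.2), Plau (26.3) and Plat (8.72) to Reck (3.05). Only Timp1 and Serpinf1 had overlapping ranges among neighbours in this order. In siZBP1 cells it ran from Timp1 (354 FPKM) through Serpinf1 (270.2), Timp2 (265), Serpine2 (183), Timp3 (134), Plau (25.8) and Plat (17.0) to Reck (1.03). No neighbouring ranges overlapped there, although Serpinf1 and Timp2 were nearly equal. Timp3 thus went from the first to the fifth place, and below Serpine2 in both depleted samples.

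With a siZBP1 sample left out, no member passed the threshold, and the limma adjusted p of the 6 called members ran from 0.0518 for Timp3 without siZBP1 replicate 2 to 0.218 for Serpinf1 without siZBP1 replicate 1. In these fits the number of genes called among all tested fell to 23 lower and 22 higher without siZBP1 replicate 1, and to 38 and 22 without siZBP1 replicate 2. Over the 4 samples left out in turn, the log2 difference ran from -2.74 to -2.44 for Timp3, -0.82 to -0.79 for Timp2, -1.12 to -0.88 for Reck, 1.01 to 1.19 for Serpine2 and 0.86 to 0.91 for Plat. That of Serpinf1 moved most in proportion, to -0.29 (adjusted p = 0.0412) without siScr replicate 1 and to -0.60 (adjusted p = 0.0186) without siScr replicate 2. Without siScr replicate 1, Reck was at an adjusted p of 0.0556 and the other called members stayed under 0.05, with 760 genes called lower and 518 higher in all, and without siScr replicate 2 all 6 stayed under it.

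**Figure D4:**
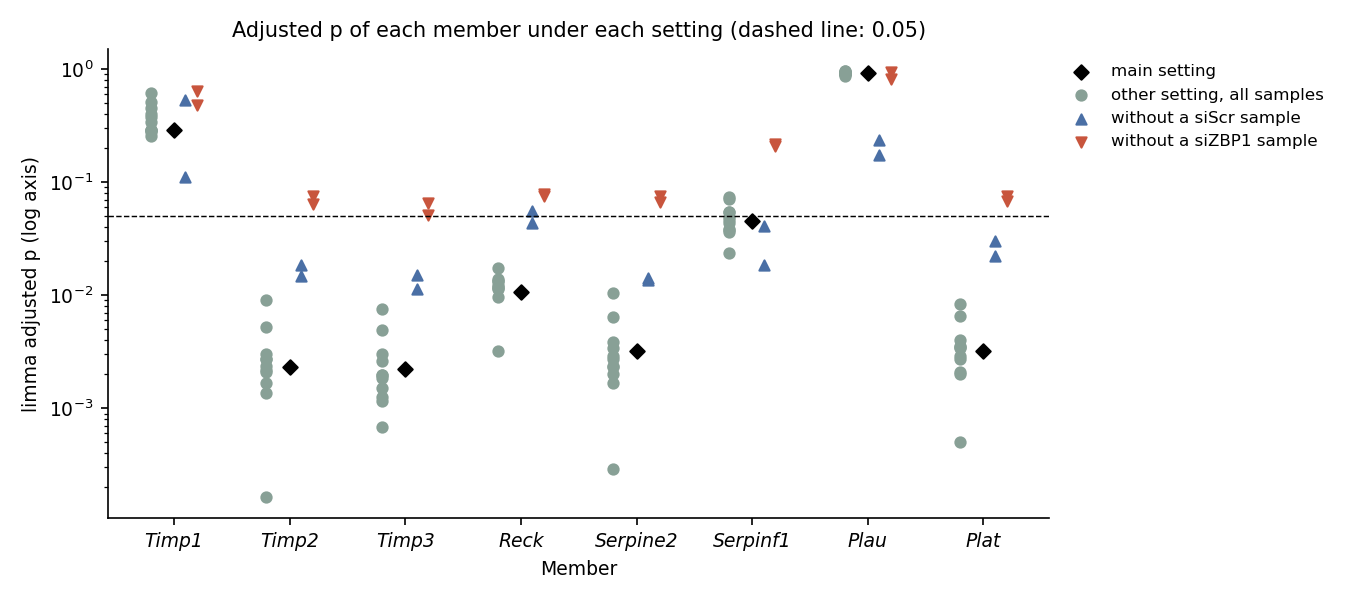
Limma adjusted p of each member on a log axis under the main setting (diamonds), other settings with all samples (circles) and with 1 sample left out (triangles), with a dashed line at 0.05. Serpinf1 lies across the line among settings with all samples, and every point without a siZBP1 sample is above it.

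The genes whose 4 values were most like those of Timp3, by Euclidean distance of log2(FPKM + 1) after subtracting each gene's own mean, were Cbr2 (distance 0.138), Zbp1 (0.148), Mir8102 (0.149), Mme (0.187) and Sp7 (0.211). Cbr2 is a carbonyl reductase, Mme encodes the cell-surface metallopeptidase neprilysin, and Sp7 is the osteoblast transcription factor osterix. Their mean was 7.42-fold lower for Cbr2, 6.40-fold lower for Zbp1, 7.16-fold lower for Mme and 8.05-fold lower for Sp7, and Mir8102 was listed at 0 in both siZBP1 samples. The likeness is over 4 samples in 2 groups, so that it shows mainly a fall of similar size.

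The proteases and inhibitors around these members were counted in lists chosen by textbook role with earlier results of these data known. The counts of each list stand beside 14.8% called lower and 13.5% called higher among all genes tested. Whether a list differs from these shares was not tested. Of the plasminogen system, 9 of 16 genes were tested, of which 4 fell and 1 rose, with a median log2 difference of -0.36. Plg, which encodes plasminogen, was listed at 0 in every sample and not tested. Plaur, the urokinase receptor, fell from 28.3 ± 2.61 to 19.3 ± 1.32 FPKM (SD, n = 2 each, adjusted p = 0.0169). S100a10, which with Anxa2 forms a plasminogen receptor, had a log2 difference of -0.54 (adjusted p = 0.00460). Hgf, a growth factor with a plasminogen-like structure, had one of 0.47 (adjusted p = 0.0242).

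Of the other serpins and secreted inhibitors, 13 of 37 were tested, with 3 lower, 2 higher and a median of -0.03. Serpinh1 (HSP47), a collagen chaperone of the endoplasmic reticulum without inhibitory activity, fell from 455 ± 52.7 to 143 ± 6.30 FPKM (SD, n = 2 each, log2 difference -1.66, adjusted p = 0.00268). Serping1, the C1 inhibitor, fell 3.19-fold (log2 difference -1.60, adjusted p = 0.00546), and Serpinb9, an intracellular granzyme B inhibitor, fell 1.28-fold (adjusted p = 0.0300). Cst3, the cathepsin inhibitor cystatin C, rose 1.16-fold (adjusted p = 0.0292) and Serpinb8 rose 1.23-fold (adjusted p = 0.0333).

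Of the matrix metalloproteinases, which TIMPs inhibit, 13 of 23 were tested, with 7 lower, 2 higher and a median of -0.42. The largest falls were those of Mmp17 (log2 difference -1.27, adjusted p = 0.00506), Mmp11 (-0.95, adjusted p = 0.0147) and Mmp23 (-0.88, adjusted p = 0.0144). Mmp2 and Mmp14, the partners of TIMP2 in pro-MMP2 activation, were among the 7. Mmp3, stromelysin-1, rose from 0.0828 and 1.00 FPKM to 10.3 and 9.95 FPKM (log2 difference 2.92, adjusted p = 0.00686), and Mmp15 rose from a mean of 0.430 to 2.34 FPKM (adjusted p = 0.00671). Mmp3 (siScr mean of 0.541 FPKM) and Mmp15 passed the filter of 1 FPKM only through the siZBP1 samples. Mmp17 passed it only through the siScr samples (means of 3.07 FPKM in siScr and 0.683 FPKM in siZBP1 cells). The controls of Mmp3 differed widely from each other at low values.

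Of the ADAM and ADAMTS proteases, several of which TIMP3 inhibits, 17 of 28 were tested, with 1 lower, 6 higher and a median of 0.15. Adam12 rose from 4.46 ± 0.236 to 13.5 ± 0.0348 FPKM (SD, n = 2 each, log2 difference 1.41, adjusted p = 0.00242), Adamts12 rose 2.54-fold (adjusted p = 0.00442) and the aggrecanase Adamts4 rose 2.09-fold (adjusted p = 0.0203). Adam17, the TNF-converting enzyme, was also among the 6. Adamts2, which removes the N-terminal propeptide of procollagens, fell 1.52-fold (adjusted p = 0.0105).

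**Figure D5:**
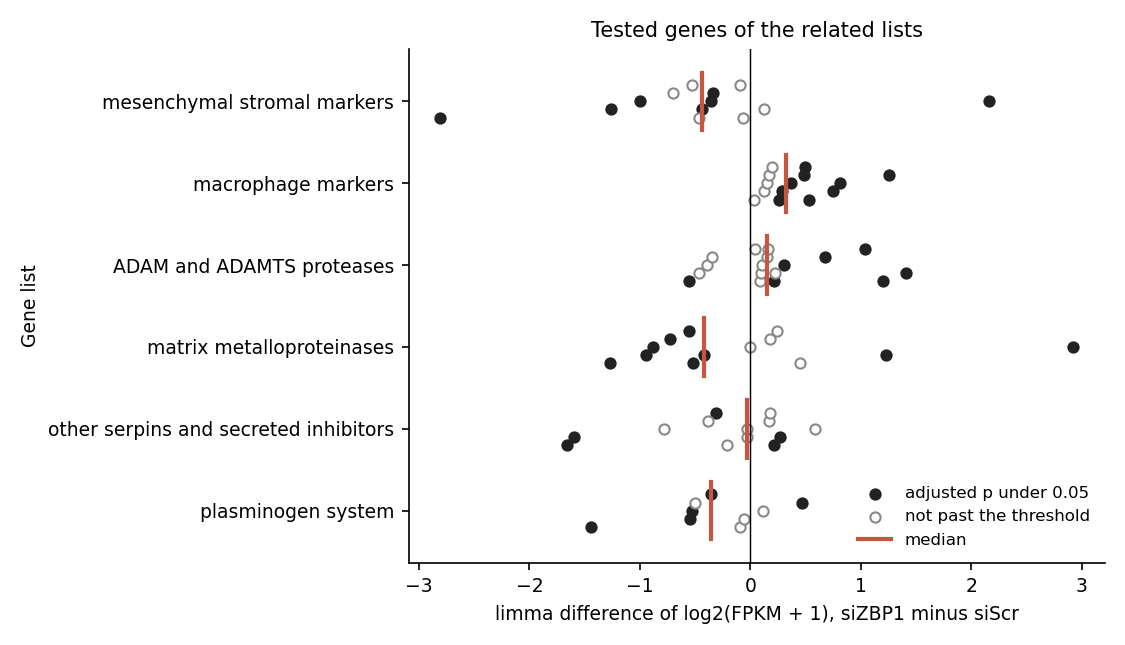
Limma log2 difference (siZBP1 minus siScr) of the tested genes in 4 lists around the members and in macrophage and mesenchymal markers, with filled points at an adjusted p under 0.05 and red lines at the medians. The macrophage markers run from 0.03 to 1.25, and the matrix metalloproteinases spread from -1.27 to 2.92.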

How the data were processed

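RNA-seq of 4 mBMSC samples (2 siScr, 2 siZBP1, mapped from sample titles to the columns of the same name) was used. The authors mapped TruSeq reads to mm10 with TopHat and deposited FPKM per gene. Their methods name HTSeq for the values and the submitters' processing notes list TopHat and Cufflinks. Annotation, strand setting and filters are not given in the sources used here. The deposited table also holds the authors' group means, which were not used.

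From these values, log2(FPKM + 1) was fitted with limma 3.58.1 under R 4.3.3, using its variance trend and leaving out genes averaging below 1 FPKM over the samples, and p-values were adjusted by Benjamini and Hochberg over all 11959 genes tested. A fold change on this scale understates the change of low genes. Of the gene rows, 2 repeat a symbol listed earlier, and neither is that of a member. The procedure was run on simulated data with planted changes larger than those of every called member except Timp3. That run does not show how well smaller changes are found. Python 3.11.15, pandas 2.3.3 and matplotlib 3.10.9 made the summaries. Positions and 3' UTRs came from GENCODE M21 (GRCm38, the same assembly as mm10) and promoters from RefSeq.

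The members and lists were chosen with earlier results of these data known. All members are named, with Zbp1, up to 3 rises and 3 falls per list by log2 difference among called genes with separate groups, and the 5 genes most like the most changed member. A gene that this rule names is not reported here. Genes named beyond this rule (Mmp2, Mmp14, Adam17, Anxa2, Plg, the synapsins and the markers) were chosen after their values were seen. Cep295nl is named only for its position. The 15 alternative settings of the limma fit concern the pseudocount, filter, scaling, variance model, replicate block and samples left out.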

Additional observations from a re-analysis of the deposited data

How the results depend on the processing

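With all samples, 61 of 65 limma values of the 6 called members stayed past the threshold (Reck was not tested at a mean of at least 5 FPKM), and none changed sign. The 4 lost values were those of Serpinf1. With 1 sample left out no called member changed sign, in fits where the lone sample takes its spread from the other group. Called members other than Reck had a smaller SD in siZBP1 than in siScr cells, such as 1.99 against 57.8 FPKM for Serpinf1. Passing or losing the threshold in these fits therefore depends on which pair gives the spread, and is no measure of stability. Over the samples left out, between 0 and 4 members were called lower and between 0 and 2 higher. Genes called ran between 23 and 1297 for lower and 22 and 1019 for higher, and those of the 4 lists between 1 and 15 for lower and 0 and 7 for higher, beside 15 and 11. Plau, not called in any setting, had a log2 difference of 0.012 with median centring and between -0.17 and 0.13 over the samples left out, being 0.024 without siZBP1 replicate 1. At a fold of 2, 1 member was higher by the ratio of the means. With log2(FPKM + 1) summed in place of FPKM, the shares in siScr and siZBP1 cells were 31.6% and 35.9% for Timp1, 32.7% and 34.1% for Timp2 and 35.7% and 30.0% for Timp3.

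Replicate numbers are not tied to a shared source, and same-numbered samples did not deviate together (correlation over genes -0.063). With the replicate block, 1654 genes were called lower and 1465 higher, and the calls of the 8 tested members were as without it, with an adjusted p of 0.0239 for Serpinf1. Depth in reads is unknown, so no counting error is given for low genes such as Reck.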
